A study of Mus musculus with 20 samples.

Results

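The 10 genes described here belong to the MHC class I pathway of antigen presentation: the immunoproteasome subunits Psmb8, Psmb9 and Psmb10, the peptide transporter and its partner Tap1, Tap2 and Tapbp, the class I chains B2m, H2-K1 and H2-D1, and the transactivator Nlrc5. They were listed by name. All 10 are among the 34291 rows of the deposited count table and all 10 passed the filter on low counts, which 13940 genes passed. The RNA came from whole hearts of C57BL/6 mice. Of the 20 animals, 10 ate a diet with 14 ppm rapamycin, which blocks the growth-regulating kinase complex mTORC1, and 10 of the same age ate control food. Both diets lasted 3 months from 24 months of age, so every heart came from an animal of 27 months, and the labels name no engineered allele. The comparison asks how rapamycin begun in late life altered these transcripts in the old heart. Libraries are named by diet and by the number in their label.

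Nucleated cells show samples of their own proteins on the surface as short peptides bound to class I molecules, which cytotoxic T cells inspect. The peptides are cut by the proteasome, carried into the endoplasmic reticulum by the TAP transporter and loaded onto a class I heavy chain paired with beta-2-microglobulin. Interferon gamma raises the whole pathway: it induces 3 catalytic subunits that replace the standard ones in newly assembled proteasomes, and it induces Nlrc5, which switches on the class I promoters. In the heart, endothelial cells and leukocytes carry much of the class I, and cardiomyocytes carry little at rest.

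The libraries held 7039514 to 10594335 counts in controls and 8525162 to 12458309 with rapamycin. Whole hearts were used, and the defining markers of the tissue were present: 10 cardiomyocyte markers summed to 20862 to 70976 normalised CPM in controls and 58512 to 79733 with rapamycin. CPM are counts per megaread of the library total, here scaled between libraries. The library of control 19 stood apart. It had the lowest of these sums and 23990 normalised CPM of 5 lung and airway markers, against a median of 1.76 over the controls. Control 1, control 20 and rapamycin 15 also carried these markers at more than 10 times the median library. Rapamycin 8 held 26.4 normalised CPM of 5 thymus markers, against a median of 0.598 over the rapamycin group. The members as a set are therefore given with and without control 19 and without the 4 libraries with lung markers. Values of single genes and of other lists in those fits are given only where stated. In bulk RNA, fewer cells of a type and less RNA per cell cannot be told apart.

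Of the 10 members 1, Psmb10, fell with rapamycin. The test was edgeR's quasi-likelihood F-test with p-values adjusted by Benjamini-Hochberg over 13940 genes and a threshold of 0.05, by which 3.36% of all genes changed and 2.68% fell. All 10 members had a log2 fold change of rapamycin over control below 0, as did 52.5% of all genes. No member had every rapamycin heart below every control, which 0.0574% of genes had. The median log2 fold change was -0.48 over the members and -0.01 over all tested genes. Before adjustment 9 of the 10 members had a p under 0.05, against 13.5% of all genes with such a p and a value below 0. These 9 are not separate observations, because the members were high or low together from heart to heart. Without control 19 the members' median was -0.40 and that of all genes 0.00, with all 10 members and 48.6% of genes below 0. Psmb10 alone of the members was then called, where 2.33% of genes fell, and 8 had an unadjusted p under 0.05, against 10.5% of genes. The other 9 members lay between -0.63 (Nlrc5) and -0.13 (Tapbp) in that fit, with adjusted p-values of 0.129 to 0.419 by edgeR. Without the 4 libraries with lung markers these counts were again 1, where 1.37% of genes fell, and 7, against 9.63%.

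**Figure D1:**
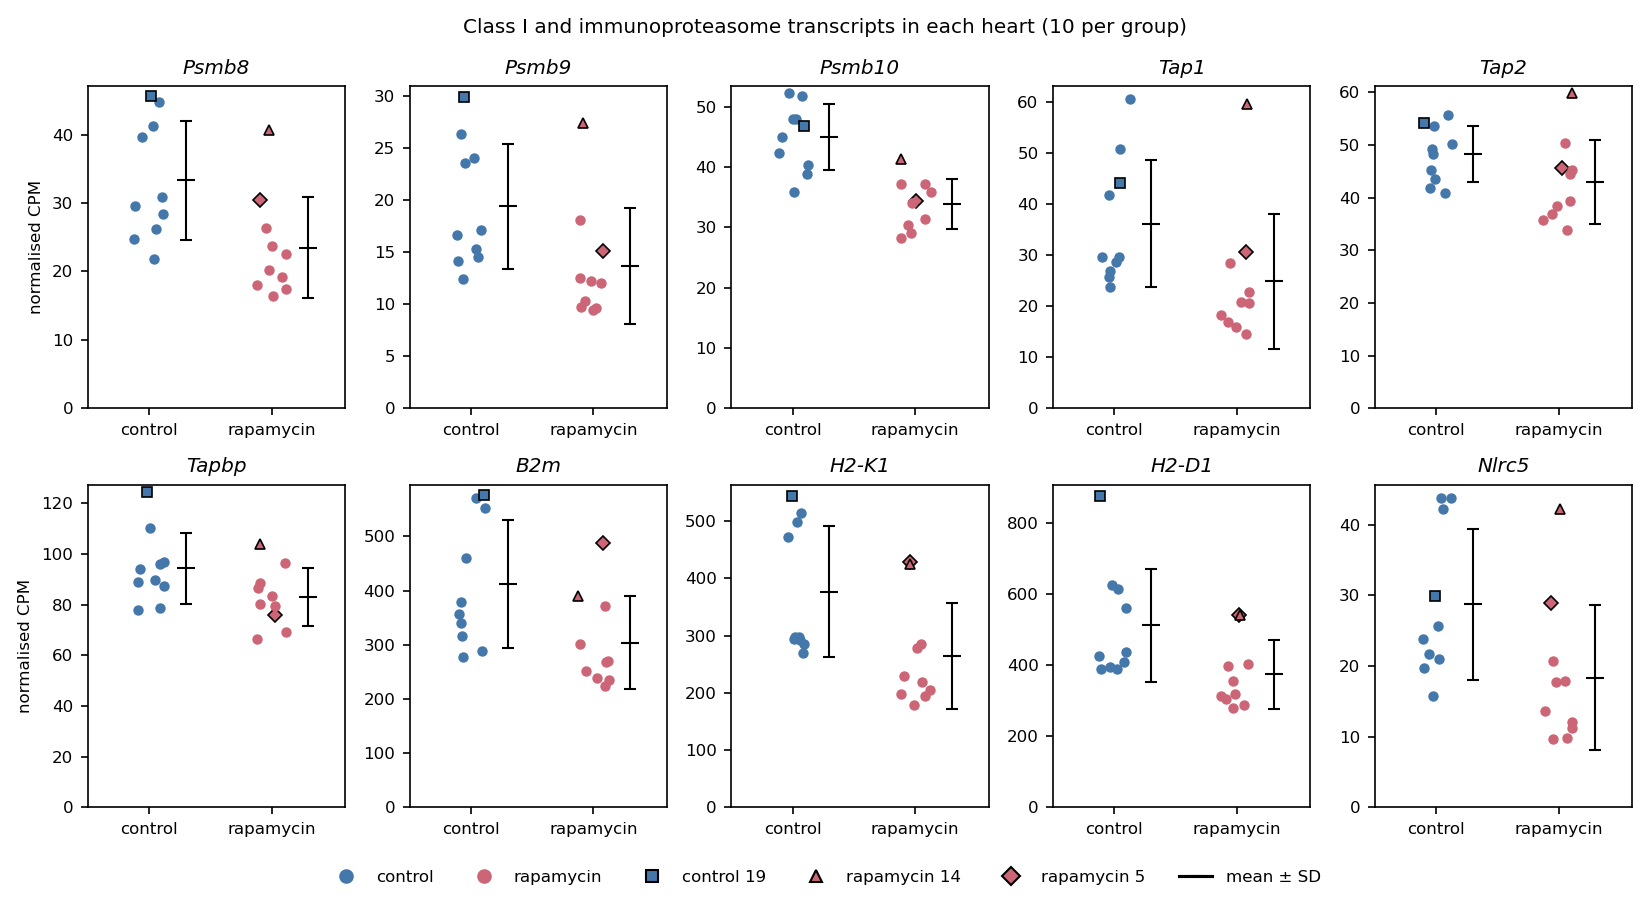
Normalised CPM of the 10 members in each heart, with the mean and SD of each group beside the points. Blue points are 10 control and red points 10 rapamycin libraries. Psmb10 has little spread, with every rapamycin library below the control median, whereas in most other panels a few controls and rapamycin 14 or rapamycin 5 lie far above the rest of their group.

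Psmb10 encodes the inducible subunit beta2i, which takes the place of Psmb7 and cuts after basic residues. Its control libraries ranged from 35.8 to 52.2 normalised CPM with a median of 45.9, and its rapamycin libraries from 28.1 to 41.4 with a median of 34.2. All 10 rapamycin hearts were below the control median and 6 were below every control, while 7 controls were above every rapamycin heart. Its mean was 44.9 ± 5.46 in the control group and 33.9 ± 4.17 in the treated group (SD, n = 10 each), a log2 fold change of -0.41 ± 0.08 (SE, adjusted p = 0.0120 by edgeR), which is a change of -24.5%. Without control 19 the log2 fold change was -0.39 ± 0.08 (adjusted p = 0.0105 by edgeR). The call was kept in each of the 20 fits that left out 1 library, with values between -0.44 and -0.38. Of the 10 members, Psmb10 alone is among the 700 genes of the authors' deposited table of differential genes.

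Psmb8 encodes beta5i, the inducible subunit with chymotrypsin-like activity that replaces Psmb5. It ranged from 21.8 to 45.6 normalised CPM in controls (median 30.2) and from 16.4 to 40.6 with rapamycin (median 21.4). The groups overlapped, with 5 rapamycin hearts below every control and rapamycin 14 the highest of its group. Its log2 fold change was -0.50 ± 0.17 (SE, adjusted p = 0.0860 by edgeR).

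Psmb9 encodes beta1i, the inducible replacement of Psmb6. It ranged from 12.4 to 29.8 normalised CPM in controls (median 16.9) and from 9.46 to 27.4 with rapamycin (median 12.1). Control 19 was the highest control, rapamycin 14 the highest rapamycin heart, and 6 rapamycin hearts were below every control. The log2 fold change was -0.51 ± 0.20 (SE, adjusted p = 0.142 by edgeR). The log2 fold changes of Psmb9 and Psmb8 differed from that of Psmb10 by less than their own SE. Without control 19 they were -0.42 for Psmb9, -0.44 for Psmb8 and -0.39 for Psmb10. The spread between hearts was larger for Psmb9 and Psmb8. The coefficient of variation in controls was 31.0% for Psmb9, 26.2% for Psmb8 and 12.2% for Psmb10.

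The 3 standard subunits did not pass and had values close to 0. Psmb5, Psmb6 and Psmb7 had log2 fold changes of 0.11 ± 0.09, 0.10 ± 0.06 and 0.04 ± 0.06 (SE, adjusted p = 0.527, 0.322 and 0.739 by edgeR), which turned to -0.01, -0.02 and -0.08 when libraries were scaled by their totals alone, and Psmb7 was at -0.02 without the 4 libraries with lung markers. Of 11 further subunits of the 20S core none passed and 6 were below 0, with a median of -0.01, led by Psma3 at -0.10 ± 0.07 (adjusted p = 0.419 by edgeR) and Psma5 at -0.08 ± 0.06 (0.482). Among 8 genes of proteasome activators and assembly none passed and the median was 0.04. The members of that list with the smallest p were Psme4, the activator PA200 (0.12 ± 0.08, adjusted p = 0.382 by edgeR), and Psme2, the beta chain of the interferon-inducible activator PA28 (-0.11 ± 0.07, 0.385). Its partner Psme1, named after its value was seen, stood at 0.11 ± 0.08 (0.413) and at -0.02 with library totals alone.

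Each inducible subunit was therefore compared with the standard subunit it replaces as a ratio of counts within the same library, which needs no scaling between libraries. The log2 ratio of Psmb10 to Psmb7 ranged from -2.06 to -1.52 in controls and from -2.72 to -1.96 with rapamycin. Of the 10 rapamycin hearts 9 were below every control, rapamycin 14 being the exception. The log2 difference, rapamycin minus control, was -0.44 ± 0.09 (SE, adjusted p = 0.000240 over 3 pairs, 2-sided permutation test).

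The log2 ratio of Psmb8 to Psmb5 ranged from -1.31 to 0.29 in controls and from -1.73 to -0.44 with rapamycin, a log2 difference of -0.63 ± 0.22 (SE, adjusted p = 0.0166 over 3 pairs, 2-sided permutation test). That of Psmb9 to Psmb6 ranged from -2.64 to -1.12 and from -3.26 to -1.63, a log2 difference of -0.63 ± 0.23 (SE, adjusted p = 0.0166 over 3 pairs, 2-sided permutation test). In each of these pairs 6 rapamycin hearts were below every control, and 8 and 9 of 10 were below the control median. Control 19 had the highest ratio of both pairs. Without it the 3 log2 differences were -0.53 for Psmb8, -0.52 for Psmb9 and -0.42 for Psmb10 (adjusted p = 0.0317, 0.0317 and 0.000325, exact 2-sided permutation tests). All 3 ratios passed in each of the 20 comparisons without 1 library. Their p-values were adjusted over 3 pairs and not over all genes, where Psmb8 and Psmb9 did not pass (adjusted p = 0.0860 and 0.142 by edgeR). The members were chosen with earlier results of these data known, and the share of other gene pairs that would pass was not computed. Each ratio reuses the counts of its member tested above, so it is not a separate observation. Each ratio also holds the difference in the standard subunit, given above. Transcripts of Psmb5 share 57.1% of their 50-base stretches with other annotated genes, its pseudogene among them. Those of Psmb7 share 28.1% and those of Psmb6 2.67%. Counts of Psmb5 from uniquely mapped reads are therefore uncertain. Psmb7 shares its stretches with Nek6, and the share does not tell a copy at another site from annotations that overlap. How far the counts of Psmb7 were affected was not tested.

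**Figure D2:**
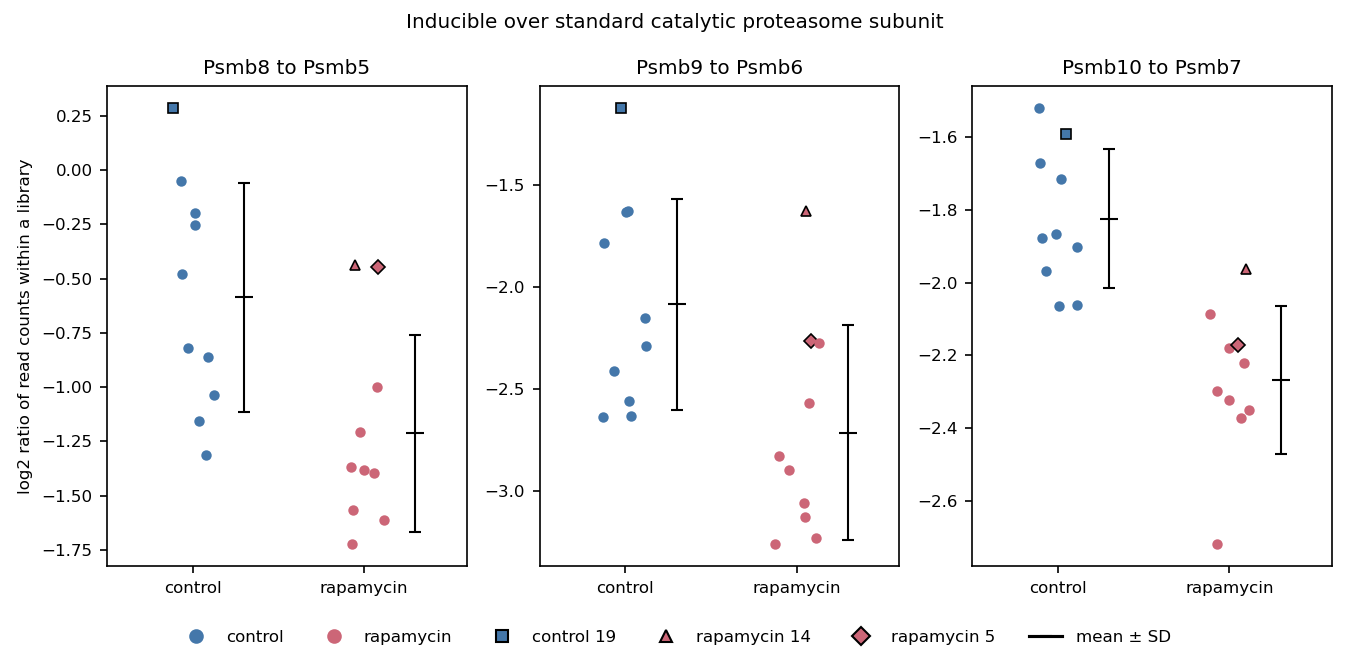
Log2 ratio of the read counts of each inducible subunit to the standard subunit it replaces, within each library. Blue points are control and red points rapamycin libraries (10 each), with mean and SD beside them. The ratios are lower with rapamycin in all 3 pairs, and for Psmb10 to Psmb7 only rapamycin 14 reaches into the control range.

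Tap1 and Tap2 encode the paired subunits of the transporter that brings peptides into the endoplasmic reticulum. Tap1 ranged from 23.7 to 60.6 normalised CPM in controls (median 29.6) and from 14.6 to 59.6 with rapamycin (median 20.7). Of the rapamycin hearts 7 were below every control, while rapamycin 14, at 59.6, came next to the highest of all hearts. Tap1 had a log2 fold change of -0.54 ± 0.23 (SE, adjusted p = 0.176 by edgeR).

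Tap2 ranged from 40.9 to 55.6 normalised CPM in controls (median 48.7) and from 33.9 to 59.9 with rapamycin (median 41.9). Rapamycin 14 was above every control. Tap2 had a log2 fold change of -0.17 ± 0.09 (SE, adjusted p = 0.290 by edgeR), the smallest of the 10 in size.

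Tapbp encodes tapasin, which holds empty class I molecules at the transporter. It ranged from 77.8 to 124 normalised CPM in controls (median 91.9) and from 66.3 to 104 with rapamycin (median 81.9), with 3 rapamycin hearts below every control. The log2 fold change was -0.19 ± 0.09 (SE, adjusted p = 0.225 by edgeR) and -0.13 without control 19, its highest library. Without the 4 libraries with lung transcripts it was -0.10 (adjusted p = 0.605 by edgeR).

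Of the other 8 genes listed for class I loading and peptide trimming, 6 were below 0 and 1 fell. That was Pdia3, the disulfide isomerase ERp57 of the loading complex, whose mean went from 217 ± 23.7 to 184 ± 16.2 normalised CPM (SD, n = 10 each). Its log2 fold change was -0.24 ± 0.07 (SE, adjusted p = 0.0476 by edgeR), and it passed in only 4 of the 20 fits without 1 library and not without control 19 (-0.19, adjusted p = 0.0604). Nor did it pass without the 4 libraries with lung markers (-0.18, adjusted p = 0.140 by edgeR). Tapbpl, the tapasin-like peptide editor TAPBPR, named after its value was seen, was at -0.41 ± 0.12 (adjusted p = 0.0672 by edgeR) and fell without control 10 (-0.45, adjusted p = 0.0413).

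The class I chains were the most abundant members. Per kilobase of the longest coding transcript in the GENCODE annotation, B2m stood at 479 ± 138 CPM per kilobase in controls, H2-D1 at 244 ± 75.4 and H2-K1 at 233 ± 70.5 (SD, n = 10), and the last 2 levels differed by less than their spread. Psmb10 (34.2 ± 4.16) and Tapbp (32.6 ± 4.84) followed, also within their spread of each other, then Psmb8 (20.5 ± 5.36), Psmb9 (14.3 ± 4.45), Tap2 (14.0 ± 1.53), Tap1 (12.2 ± 4.22) and Nlrc5 (3.80 ± 1.41). Psmb9, Tap2 and Tap1 did not differ beyond their spread. The heavy chains belong to a family of close copies: 8.79% of the 50-base stretches of H2-K1 and 14.3% of those of H2-D1 occur in transcripts of other genes, each other's included. Tapbp (21.0%), Tap2 (12.6%), Psmb9 (12.5%), Tap1 (6.47%) and Psmb8 (5.83%) also share stretches with other genes, against 0% for B2m, Psmb10 and Nlrc5. In the RefSeq annotation, however, B2m overlaps Patl2, and Nlrc5 overlaps 9330175E14Rik, Gm51584 and Mir7072. The deposited counts come from reads mapped to unique sites, so levels of H2-K1 and H2-D1 are uncertain. For Tapbp, Tap2, Psmb9, Tap1 and Psmb8 the shares do not tell copies at other sites from annotations that overlap at 1 site. Psmb9 and Tap1, for example, are neighbours that share stretches with each other. How far the levels of these members were affected was not tested.

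B2m, the shared light chain, ranged from 277 to 577 normalised CPM in controls (median 367) and from 223 to 489 with rapamycin (median 269). Control 19 and control 16 were the highest controls, rapamycin 5 the highest rapamycin heart, and 6 rapamycin hearts were below every control. B2m had a log2 fold change of -0.44 ± 0.17 (SE, adjusted p = 0.131 by edgeR).

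H2-K1, the K heavy chain, ranged from 269 to 544 normalised CPM in controls and from 178 to 428 with rapamycin. In controls the 4 highest hearts, controls 2, 11, 16 and 19, were at 472 or above and the next was at 297. With rapamycin, rapamycin 5 (428) and rapamycin 14 (425) were followed by a heart at 286. The medians were 297 and 224, and the log2 fold change was -0.51 ± 0.19 (SE, adjusted p = 0.120 by edgeR).

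H2-D1, the D heavy chain, ranged from 388 to 876 normalised CPM in controls (median 431) and from 279 to 541 with rapamycin (median 337). Control 19 was at 876 and the next control at 626. The log2 fold change was -0.45 ± 0.16 (SE, adjusted p = 0.112 by edgeR), and -0.33 ± 0.14 without control 19 (adjusted p = 0.185).

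The promoters shown are those of the class I chains and of the called member. The 3 chains carry the element through which Nlrc5 is known to act. The RefSeq promoter table for GRCm38.p6, a later build than that of the counts, held a window for 8 of the 10 members, all but Tap2 and Nlrc5. Each line gives the 250 bases before an annotated start, 5′ to 3′. Capitals mark TGACG and ATTGG where they lie 20 bases apart, which are the cores of the X2 and Y boxes of the class I SXY module, the kB-like pattern GGGNNNNNCCC, and the interferon response-like pattern GAANNGAAA on either strand. B2m lies at chr2:122147437-122147686 on the plus strand, H2-K1 at chr17:34000348-34000597 on the minus strand and H2-D1 at chr17:35262844-35263093 on the plus strand.
B2m: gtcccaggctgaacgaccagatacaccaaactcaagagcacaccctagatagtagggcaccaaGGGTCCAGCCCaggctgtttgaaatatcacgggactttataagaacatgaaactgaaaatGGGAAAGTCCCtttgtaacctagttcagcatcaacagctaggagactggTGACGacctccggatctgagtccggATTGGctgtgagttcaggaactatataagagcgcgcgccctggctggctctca
H2-K1: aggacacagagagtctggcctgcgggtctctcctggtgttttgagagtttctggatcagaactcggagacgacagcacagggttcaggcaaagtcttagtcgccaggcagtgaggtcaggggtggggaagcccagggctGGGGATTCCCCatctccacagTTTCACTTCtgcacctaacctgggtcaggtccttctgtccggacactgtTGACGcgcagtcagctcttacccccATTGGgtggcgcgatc
H2-D1: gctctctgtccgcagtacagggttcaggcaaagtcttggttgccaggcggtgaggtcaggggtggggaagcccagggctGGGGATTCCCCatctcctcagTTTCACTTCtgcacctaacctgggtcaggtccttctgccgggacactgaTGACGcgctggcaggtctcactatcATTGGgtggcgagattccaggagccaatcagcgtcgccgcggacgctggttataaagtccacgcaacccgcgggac

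The pair TGACGNNNNNNNNNNNNNNNNNNNNATTGG, searched on both strands, was in the windows of all 3 chains and of no other member, and in 31 of all 32851 promoter windows of 300 bases (0.0944%). The pattern was written after these sequences had been read, so its spacing is a description. GGGNNNNNCCC, which is its own reverse complement, was in the windows of 5 members (these 3, Psmb9 and Tap1) and in 14.0% of all windows. Its form GGGGATTCCCC was in H2-K1 and H2-D1 and in 0.0304% of windows. That form was taken from the match that both heavy chains share, so finding it in them was fixed in advance. GAANNGAAA on either strand was in H2-K1 and H2-D1 and in 7.52% of windows. The B2m window held the similar stretch gaaactgaaa, whose longer gap this pattern does not match, so it is not in capitals. Other spacings were not searched, so the absence of GAANNGAAA from a window does not show that it lacks an interferon response element. Psmb9 and Tap1 are read in opposite directions from starts 226 bases apart, so their windows overlap. The RefSeq window of Psmb10, the member that fell, is shown for comparison at chr8:105938393-105938642 on the minus strand and held none of these patterns.
Psmb10: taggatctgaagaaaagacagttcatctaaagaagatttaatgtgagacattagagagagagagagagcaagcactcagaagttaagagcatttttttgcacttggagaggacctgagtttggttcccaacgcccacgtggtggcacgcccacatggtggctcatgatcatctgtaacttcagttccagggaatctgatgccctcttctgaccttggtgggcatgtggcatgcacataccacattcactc

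Nlrc5, the transactivator of class I genes, ranged from 15.8 to 43.9 normalised CPM in controls (median 24.7) and from 9.68 to 42.2 with rapamycin (median 15.7). Of the rapamycin hearts 5 were below every control, and rapamycin 14 was among the 4 highest hearts of the study. The log2 fold change was -0.65 ± 0.26 (SE, adjusted p = 0.153 by edgeR), the largest of the 10 in size and the one with the largest error. Its coefficient of variation was 37.2% in controls and 55.9% with rapamycin. Ciita, the class II counterpart of Nlrc5, was at -0.51 ± 0.18 (adjusted p = 0.107 by edgeR).

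**Figure D3:**
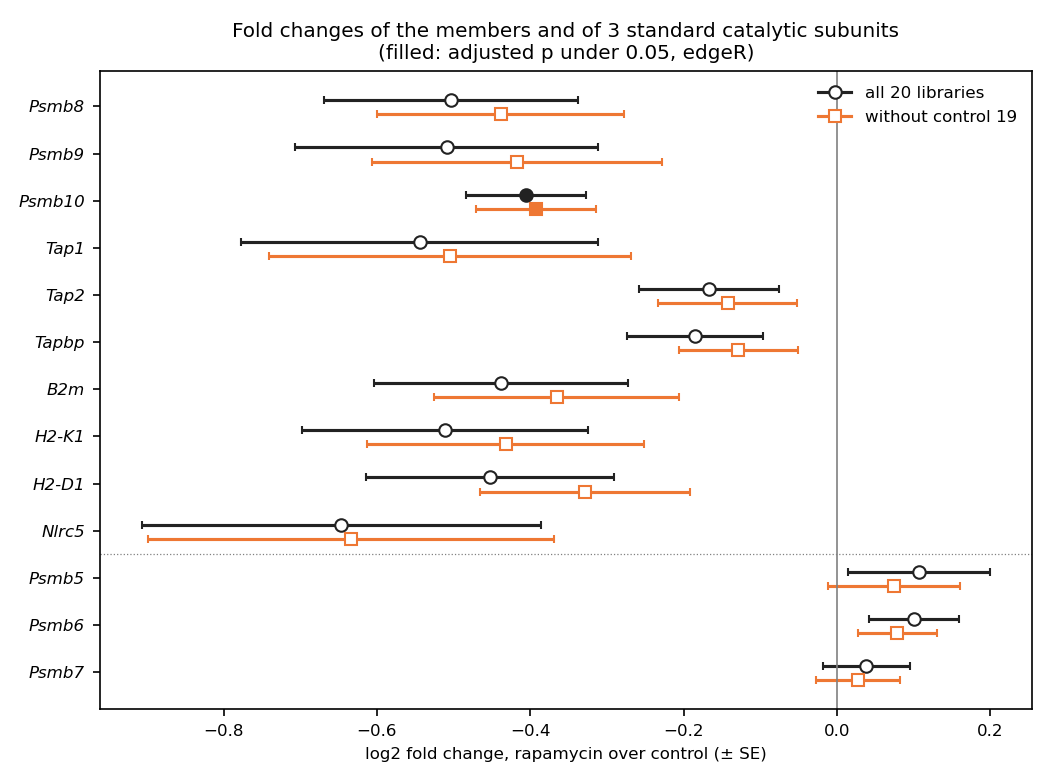
Log2 fold change of rapamycin over control with its SE for the 10 members and, below the dotted line, the standard subunits Psmb5, Psmb6 and Psmb7, in all 20 libraries (circles) and without control 19 (squares). Filled symbols passed an adjusted p of 0.05. All members lie below 0 in both fits, Psmb10 alone is filled, and the standard subunits lie close to 0.

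The same hearts were high for most members. In 8 of 10 members the 4 highest controls were controls 2, 11, 16 and 19, the exceptions being Psmb10 and Tapbp. Among rapamycin hearts, rapamycin 14 was highest in 7 members and rapamycin 5 in the other 3, the class I chains. Rapamycin 14 exceeded the control median in 9 members, all but Psmb10. Rapamycin 15 was the lowest heart of all for 5 members. With each group's mean removed, the correlation of log2 CPM over the 20 hearts had a median of 0.80 over the 45 pairs of members, from 0.33 (Tapbp with B2m) to 0.95 (H2-K1 with H2-D1). Over the 19 hearts without control 19 it ran from 0.19 to 0.98 with a median of 0.80. These points share library depth and scaling, and the values are a description. Psmb10 correlated with Psmb8 at 0.69 and with B2m at 0.58.

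**Figure D4:**
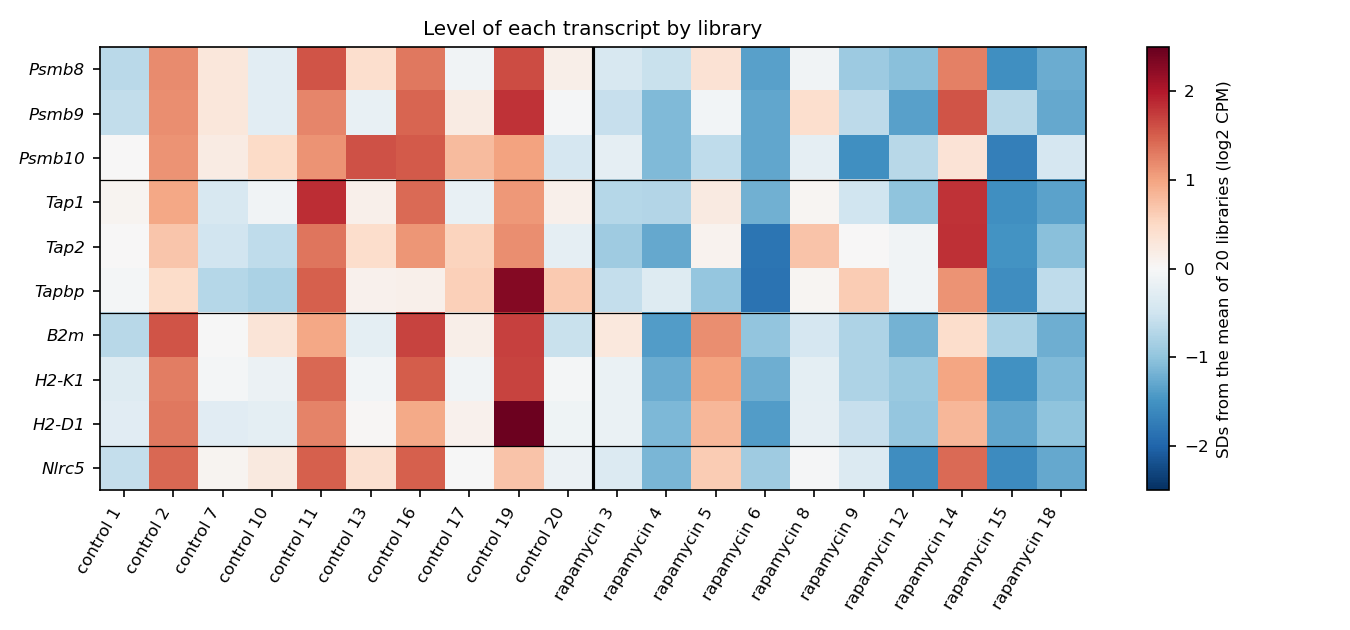
Level of each member in each library, in SDs from that gene's mean over the 20 libraries on the log2 CPM scale (red high, blue low). Controls are to the left of the thick line and rapamycin to the right. Columns of 1 colour show hearts in which the members are high or low together: controls 2, 11, 16 and 19 and rapamycin 14 are red in most rows, and rapamycin 6, 15 and 18 are blue.

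In the fits that left out 1 library, which members passed depended on 2 rapamycin hearts. With all 20 libraries it also depended on method and scaling: DESeq2 called Psmb8 and Psmb10, and library totals alone called Psmb8, Psmb10 and H2-D1. Without rapamycin 14, 4 members fell: Tap1 (-0.78, adjusted p = 0.0343 by edgeR), Psmb9 (-0.67, 0.0448), Psmb8 (-0.62, 0.0358) and Psmb10. In that fit 302 of 14015 tested genes changed, against 469 of 13940 with all libraries. Without rapamycin 5, 3 members fell: H2-K1 (-0.61, adjusted p = 0.0478 by edgeR), B2m (-0.54, 0.0448) and Psmb10. Calls over all genes rose in that fit as well, to 791 of 13990, of which 594 fell. In the other 18 fits without 1 library, those without control 19 and rapamycin 8 included, Psmb10 alone was called. Tap2, Tapbp, H2-D1 and Nlrc5 passed in none of the 20, with smallest adjusted p-values of 0.113, 0.148, 0.0553 and 0.0524 by edgeR.

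Markers of blood-derived cells were lower with rapamycin as well. Of 13 macrophage markers 9 fell and all 13 were below 0. Their summed level was 784 to 3695 normalised CPM in controls, up to 1562 without control 19, and 562 to 1069 with rapamycin. The count of macrophage markers that fell was 4 to 12 in the fits without 1 library, 10 without control 19, 4 without rapamycin 8, and 7 without the 4 libraries with lung markers. It was 4 also without control 2 and without rapamycin 4, 6, 12, 15 or 18, 5 without control 11 and without rapamycin 3 or 9, and 6 without control 1 or 13 and without rapamycin 14. Of 8 markers of all leukocytes 7 fell, and 5 to 8 without 1 library. Their sums were 242 to 987 in controls, up to 481 without control 19, and 156 to 311 with rapamycin.

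T and NK cell markers summed to 13.9 to 64.9 normalised CPM in controls and 6.10 to 33.9 with rapamycin. The highest rapamycin heart was rapamycin 8, the one with thymus markers, and the next was at 18.5. Of 6 tested T and NK cell markers 2 fell, Cd2 and Nkg7, and 1 to 3 without 1 library. Cd2 alone fell without control 2, 11 or 19 and without rapamycin 3, 4, 6, 9, 12, 14, 15 or 18, and Cd2, Cd3g and Cd4 fell without rapamycin 8. B and plasma cell markers summed to 12.2 to 486 in controls, up to 275 without control 19, and 6.43 to 75.5 with rapamycin, and none of 6 tested passed, while Pou2af1 fell without control 11 or 17 and without rapamycin 3 or 14. None of these markers was at 0 in every library.

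Cardiomyocyte markers went the other way: all 10 were above 0, with a median log2 fold change of 0.32, and none passed. Without control 19 their median was 0.24 and Myl2 and Tpm1, of the contractile apparatus, rose by 0.38 and 0.27 on the log2 scale (adjusted p = 0.0430 and 0.0307 by edgeR). Of 8 endothelial and 7 fibroblast markers none passed, with sums of 1190 to 2057 (up to 1401 without control 19) and 1355 to 2028 in controls and 1185 to 1420 and 1186 to 2510 with rapamycin. The controls highest for most members, 2, 11, 16 and 19, also had the highest leukocyte sums (388, 481, 373 and 987 CPM), with control 7 next at 357. They had the highest T and NK cell sums as well (36.9, 64.9, 31.6 and 57.6), with control 7 next at 22.1. Macrophage sums differed, with control 16 at 840 against a control median of 1033. B and plasma cell sums differed as well. Control 11 held 12.2, the lowest of the controls, and control 2 held 67.7 against a control median of 71.5, while controls 16 and 19 held 275 and 486. Rapamycin 5 had the highest macrophage (1069) and leukocyte (311) sums of its group. Rapamycin 14, high for most members, held 684 CPM of macrophage and 208 CPM of leukocyte markers, below every control. The part of these cells in the members' values was not tested.

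Of 21 other class I and class I-like chains listed and counted, 15 passed the filter, 1 fell, 11 were below 0 and the median was -0.32. H2-T23, which encodes the chain of Qa-1, had means of 46.6 ± 13.2 and 31.8 ± 7.91 normalised CPM (SD, n = 10 each), control first. Its log2 fold change was -0.55 ± 0.15 (SE, adjusted p = 0.0475 by edgeR), and it passed in only 6 of the 20 fits without 1 library and not without control 19 (-0.45, adjusted p = 0.0636). Nor did it pass without the 4 libraries with lung markers (-0.44, adjusted p = 0.0958 by edgeR). H2-M3, which presents formylated peptides, was also named after its value was seen and was at -0.48 ± 0.15 (adjusted p = 0.0827 by edgeR), falling without rapamycin 5 (-0.56, adjusted p = 0.0304). Of the 50-base stretches of H2-T23, 29.8% occur in other genes, so its counts are uncertain.

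Of 24 tested regulators of class I and interferon receptor components none passed and 19 were below 0, with a median of -0.11 and of -0.07 without control 19. The smallest p-values were those of the feedback inhibitor Socs3 (-0.87 ± 0.26, adjusted p = 0.0690 by edgeR) and of Irf8 (-0.56 ± 0.19, 0.0944). Socs3 was at -0.56 without control 19 (adjusted p = 0.0952 by edgeR), and both fell without rapamycin 5 (-0.98 for Socs3 and -0.70 for Irf8, adjusted p = 0.0369 and 0.0223). All 16 tested GTPases and chemokines induced by interferon gamma were below 0, with a median of -0.30, and none passed, Gbp8 (-1.05 ± 0.32, adjusted p = 0.0692 by edgeR) and Gbp10 (-0.67 ± 0.35, 0.269) having the smallest p. Without rapamycin 14 both fell (-1.22 for Gbp8 and -1.07 for Gbp10, adjusted p = 0.0477 and 0.0471 by edgeR) and the list's median was -0.52, while without control 11 or 16 the median was -0.17 and 13 and 15 of the 16 were below 0. Gbp8 also fell without control 17 and without rapamycin 5. All 9 tested genes of class II presentation were below 0, with a median of -0.33 and none passed. Without control 19 that median was -0.20, without the 4 libraries with lung markers -0.21, and without control 16 it was -0.22 with 8 of 9 below 0. H2-Ob was at -1.44 ± 0.47 (adjusted p = 0.0828 by edgeR) and fell without rapamycin 3 (-1.79, adjusted p = 0.0393).

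Likeness across hearts was measured next. Among all tested genes outside the list, those with the highest correlation with the members' mean level over the 20 hearts, group means removed, were H2-T22 (0.96), H2-gs10 (0.95), Patl2 (0.95), H2-Q9 (0.92), Gm4951 (0.92), AW112010 (0.91), Gbp8 (0.91) and H2-T23 (0.90). Over the 19 hearts without control 19 the first 3 were unchanged, and Gbp4 (0.92) and H2-Q6 (0.92) were among those that entered the first 8. Patl2 lies over B2m in the RefSeq annotation, so reads of the 2 genes cannot be told apart without the strand. H2-T22 and H2-Q6 share 44.7% and 35.0% of their 50-base stretches with other genes.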

How the data were processed

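Per the labels' protocols and the design text, oligo-dT selected RNA from 20 frozen hearts gave 50 bp paired-end libraries. Per the design text the authors mapped reads to unique sites of MGSCv37 with at most 2 mismatches. Which aligner, counter and strand setting were used is not given in the sources used here. The submitters' processing notes list edgeR but not for which step. The authors deposited raw read counts for 34291 gene symbols. They also deposited CPM values for 700 genes, which equal counts over column totals within 2.77e-05 CPM for the 696 genes matched by symbol. The column of rapamycin 4 lacks 1 letter of its title and was assigned by its number. Library numbers occur in 1 group each. Within groups all 90 pairs of libraries differed by more than sampling (the chi-square per degree of freedom was at least 5.62), and the design text counts mice, so replicates are animals.

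Counts of all genes were filtered by expression, scaled by TMM and tested with edgeR 4.0.16 (R 4.3.3) in all 20 libraries without covariates, at a Benjamini-Hochberg adjusted p of 0.05. Log2 fold changes are rapamycin over control, each SE is the absolute log2 fold change over the root of its F statistic, and normalised CPM use TMM library sizes. Depth sets the counting error: members had 86 to 7223 reads per library. Ratios added 0.5 counts and were tested with 100000 resamples in scipy 1.17.1, exactly where a group had under 10. Transcript lengths and shared 50-base stretches come from GENCODE vM21 (GRCm38). The members and lists were chosen with earlier results of these data known. Named genes are the members, the replaced subunits, and from each list the called genes or else the 2 with the smallest p. The 8 genes with the highest correlation to the members were also named. Of these 1 gene is not reported here, nor is 1 promoter motif. Scripts were tested on simulated counts. Alternatives were other scalings, no filter, DESeq2 1.42.0, limma voom 3.58.1 and libraries left out.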

Additional observations from a re-analysis of the deposited data

Results flagged for a closer look

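In 3 of 32 groups of 10 values, 1 heart lay farther from its nearest neighbour than Dixon's 95% limit allows, where chance gives about 1 in 20 groups. That rate holds for separate groups of normally distributed values. Here the members went together from heart to heart and the ratios reuse their counts, so the number of groups does not show an excess over chance. Psmb9 in rapamycin 14 was at 27.4 normalised CPM, with the next rapamycin heart at 18.1. Tap1 in the same library was at 59.6, with the next at 30.6. H2-D1 in control 19 was at 876, with the next control at 626.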

How the results depend on the processing

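Every member kept a value below 0 in all 27 alternatives, and Psmb10 was called in all of them (adjusted p 0.000216 to 0.0275). The 3 subunit ratios, adjusted over 3 pairs and not over all genes, passed in all 22 alternatives of each. The number of members called was 1, and 1 to 4 when 1 library was left out, 3 with library totals only (Psmb8, Psmb10 and H2-D1) and 2 with DESeq2 (Psmb8 and Psmb10). Library totals moved the median of all genes to -0.13, so the members' values of that fit (-0.64 for Psmb8, -0.59 for H2-D1, -0.32 for Tapbp, -0.29 for Tap2) should be read against that shift. Over all genes 469 changed, 96 up and 373 down. When 1 library was left out the counts were 165 to 791, with 23 to 197 up and 142 to 594 down. Library totals gave 1332 (48 up, 1284 down), DESeq2 969 (322 up, 647 down) and limma voom 273 (209 down). No filter gave 59 up, and leaving out the 4 libraries with lung transcripts gave 280 (192 down). Psmb5, Psmb6, Psmb7 and Psme1, above 0 in the reported fit, were at -0.0123, -0.0218, -0.0842 and -0.0151 with library totals, and Psmb7 at -0.0184 without the lung libraries. Pdia3 and H2-T23 were called in 8 and 10 of their 27 alternatives. Gbp8, Socs3, H2-Ob, H2-M3 and Tapbpl, not called in the reported fit, fell with library totals and with DESeq2, and Irf8, Ciita and Psma5 with library totals. The cause of these differences was not tested, beyond the smaller number of samples where libraries were left out. No paired analysis was possible because each library number occurs in 1 group. The fewest reads of a member in a library were 86 for Nlrc5 and 87 for Psmb9.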
